A study of Mus musculus with 2 samples.

Results

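The microRNA genes Mir99a, Mir99b, Mir100, Mir125a, Mir125b-1 and Mir125b-2 were examined in small RNA libraries of the adult mouse heart. They were chosen by symbol, as the Mir99, Mir100 and Mir125 genes of the 3 genomic clusters that also hold a let-7 gene, and all 6 were found among the 2202 microRNA genes counted. The tissue was whole heart of male B6CASTF1/J mice at 2 months of age, the F1 cross of C57BL/6J and CAST/EiJ, without any treatment. There were 2 libraries, biological replicates 1 and 2, labelled as different males although the donor identifier is the same for both. Nothing else in the labels separates them, so the data allow a description of 1 group and no comparison of conditions. In bulk tissue, a lower level can mean fewer cells of a type or less RNA per cell, and these cannot be told apart.

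A microRNA is cut from a hairpin in a longer transcript and recognises messenger RNAs mainly through its seed, bases 2 to 8 from its 5′ end. miR-99 and miR-100 belong to the old miR-10 family, and miR-125 is the mammalian relative of lin-4, the first microRNA described in the worm Caenorhabditis elegans. A gene of each kind lies beside let-7 in animals as distant as flies, where the cluster acts in developmental timing, and mammals carry several copies of the arrangement. Known targets in mammals include the growth kinase mTOR for miR-99 and miR-100, and the let-7 inhibitor Lin28 for miR-125. In zebrafish, loss of miR-99, miR-100 and let-7 accompanies heart regeneration.

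The mature 5′ arms are printed here because the seeds define the families, and because the identity of miR-125b at its 2 genes limits what could be counted. They are RefSeq sequences on GRCm38.p6, written 5′ to 3′ with the seed in capitals.
miR-99a-5p: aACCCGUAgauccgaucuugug
miR-100-5p: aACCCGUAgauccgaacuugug
miR-99b-5p: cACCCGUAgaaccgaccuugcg
miR-125a-5p: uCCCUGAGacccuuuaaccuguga
miR-125b-5p: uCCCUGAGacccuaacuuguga
miR-351-5p: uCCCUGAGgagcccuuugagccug
miR-10a-5p: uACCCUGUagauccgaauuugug

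The seed ACCCGUA was common to the 3 mature sequences of Mir99a, Mir99b and Mir100. miR-99a-5p and miR-100-5p, of 22 bases each, differed only by U16A (the base in miR-99a-5p, the position from its 5′ end, the base in miR-100-5p). miR-99b-5p differed from miR-99a-5p by A1C, U11A, U16C and U21C, none of them in the seed. miR-10a-5p, of the same family, has the seed ACCCUGU. The seed CCCUGAG was shared by miR-125a-5p and miR-125b-5p, which were identical over their first 13 bases, and by miR-351-5p of a rodent gene outside these clusters, identical to miR-125b-5p over its first 8 bases. Among the RefSeq mature sequences, miR-6367 and miR-6394 also have this seed.

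Mir125b-1 and Mir125b-2 give the same mature 5′ arm. Their hairpins, as annotated in GENCODE M21 on mm10, share a stretch of 24 bases that holds this arm whole. The deposited tables count a read that maps to several places in a row of its own and for no gene. A read inside the shared stretch therefore counts for neither gene, and only reads that reach beyond it, or come from the 3′ arm, could be assigned. The 3′ arms of the pair differ, and each occurs in its own hairpin alone. The levels of these genes below are thus those of assignable reads and are not levels of miR-125b. Of the other 4 genes, none shared more than 16 bases with a microRNA hairpin elsewhere, and each of their mature arms occurred in 1 hairpin only. The search covered microRNA hairpins and not the whole genome.

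Reads assigned to microRNA genes on their own strand numbered 3650782 in replicate 1 and 3810675 in replicate 2, while 4968988 and 4868319 reads mapped to several places. Levels are given in CPM, counts scaled to a library total of 1000000 gene counts. The heart muscle markers Mir208a, Mir208b and Mir499 all reached 2 CPM in both libraries, with a summed level of 3954 and 6890 CPM in replicates 1 and 2. Of 6 neuronal markers none reached 2 CPM in both libraries, and the Mir124a genes and Mir9-2 had no count. The summed level of the 6 was 27.9 CPM in replicate 1 and 0.525 CPM in replicate 2. They are copies of Mir124a and Mir9, and a read that maps to several copies counts for no gene. Low counts here thus do not show that neuronal RNA was absent. Epithelial markers summed to 188 and 168 CPM and the liver marker Mir122 was at 142 and 97.9 CPM. The summed levels of markers for endothelium (52212 and 70228 CPM), red blood cells (2336 and 1693) and leukocytes (5478 and 4074) also differed between the libraries. Those for smooth muscle were close, at 54611 and 53284 CPM. Markers of the same type did not always move alike. The log2 ratio of replicate 1 over replicate 2, scaled as in the test below, was -1.67 for Mir208a and -2.22 for Mir208b. It was 0.07 for Mir499. Mir145a was at 0.92 against -0.02 for Mir143, and Mir451a at 0.67 against -0.20 for Mir144. The leukocyte markers Mir150, Mir142 and Mir223 were all higher in replicate 1. The part of cell content in the differences below was not tested.

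All 6 genes reached 2 CPM in both libraries, with means from 26642 CPM for Mir99a to 152 CPM for Mir125b-2. Together they held 4.94% ± 0.126 of the microRNA counts (SD, n = 2), 4.85% in replicate 1 and 5.03% in replicate 2. The Mir99 and Mir100 genes held 3.78% ± 0.459 and the Mir125 genes 1.16% ± 0.585 (SD, n = 2 each). The sum was thus nearly equal in the libraries while its parts moved in opposite directions. Mir99 and Mir100 held 4.11% and 3.46%, and Mir125 held 0.747% and 1.57%, in replicates 1 and 2. Nearly all of the Mir125 part was Mir125a, which alone held 0.710% and 1.52% of the microRNA counts. Counts are not corrected for how well a sequence is captured in a library, so the order of different genes is one of counts. They are counts per hairpin gene, with both arms together, and not levels of a mature sequence or a seed.

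Mir99a, in an intron of the long non-coding host gene Mir99ahg on the plus strand of chromosome 16 (mm10, 77598936 to 77599000), led the set. It had 27786 CPM in replicate 1 and 25498 CPM in replicate 2, a mean of 26642 CPM ± 1617 (SD, n = 2) and rank 13 of all microRNA genes. Its share of the counts had an exact Clopper-Pearson 95% interval of 2.76 to 2.80% around 2.78% in replicate 1, and of 2.53 to 2.57% around 2.55% in replicate 2, which covers counting error only. Both libraries placed it above every other member.

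Mir99b, in an intron of Spaca6 on chromosome 17 (17830188 to 17830257, plus strand), had 8878 and 5168 CPM in replicates 1 and 2, a mean of 7023 CPM ± 2624 (SD, n = 2). Spaca6 is known for a sperm protein needed in fertilisation. Mir100, on chromosome 9 (41531425 to 41531504, plus strand) in introns of the non-coding genes 3110039I08Rik and Gm49317, had 4411 and 3919 CPM, a mean of 4165 CPM ± 348. The lowest value of Mir99b was above the highest of Mir100, so that these paralogs did not overlap over the libraries. Of the summed hairpin counts of Mir99a, Mir99b and Mir100, Mir99a made up 67.6% and 73.7%, Mir99b 21.6% and 14.9%, and Mir100 10.7% and 11.3%, in replicates 1 and 2. Their common seed ACCCGUA is that of the 5′ arms, whereas the counts hold both arms.

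Mir125a lies 554 bases after Mir99b and is exonic in a transcript of Spaca6 (chromosome 17, 17830812 to 17830879, plus strand). It had 7101 CPM in replicate 1 and 15217 CPM in replicate 2, a mean of 11159 CPM ± 5738 (SD, n = 2). Its values overlapped those of Mir99b over the libraries, and the pair cannot be ordered. It stood at rank 25 in replicate 1 and rank 15 in replicate 2.

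Mir125b-1 (chromosome 9, 41581926 to 41582002, plus strand) lies in the same non-coding hosts as Mir100 and overlaps the short gene Gm28119. It had 771 and 1421 counts in replicates 1 and 2, or 211 and 373 CPM, a mean of 292 CPM ± 114 (SD, n = 2). Mir125b-2 (chromosome 16, 77646273 to 77646343, plus strand), in an intron of Mir99ahg, had 563 and 570 counts, or 154 and 150 CPM, a mean of 152 CPM ± 3.28. Both values of Mir125b-1 were above both of Mir125b-2. Mir125a made up 95.1% and 96.7% of the counts of the Mir125 genes, a share that leaves out the miR-125b-5p reads that map to both of its genes. No read lay on the opposite strand of any of the 6 genes, where the limit that a count of 0 allows (3 counts) is 0.822 CPM for replicate 1 and 0.787 for replicate 2, and their counts were the same with or without regard to strand.

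**Figure D1:**
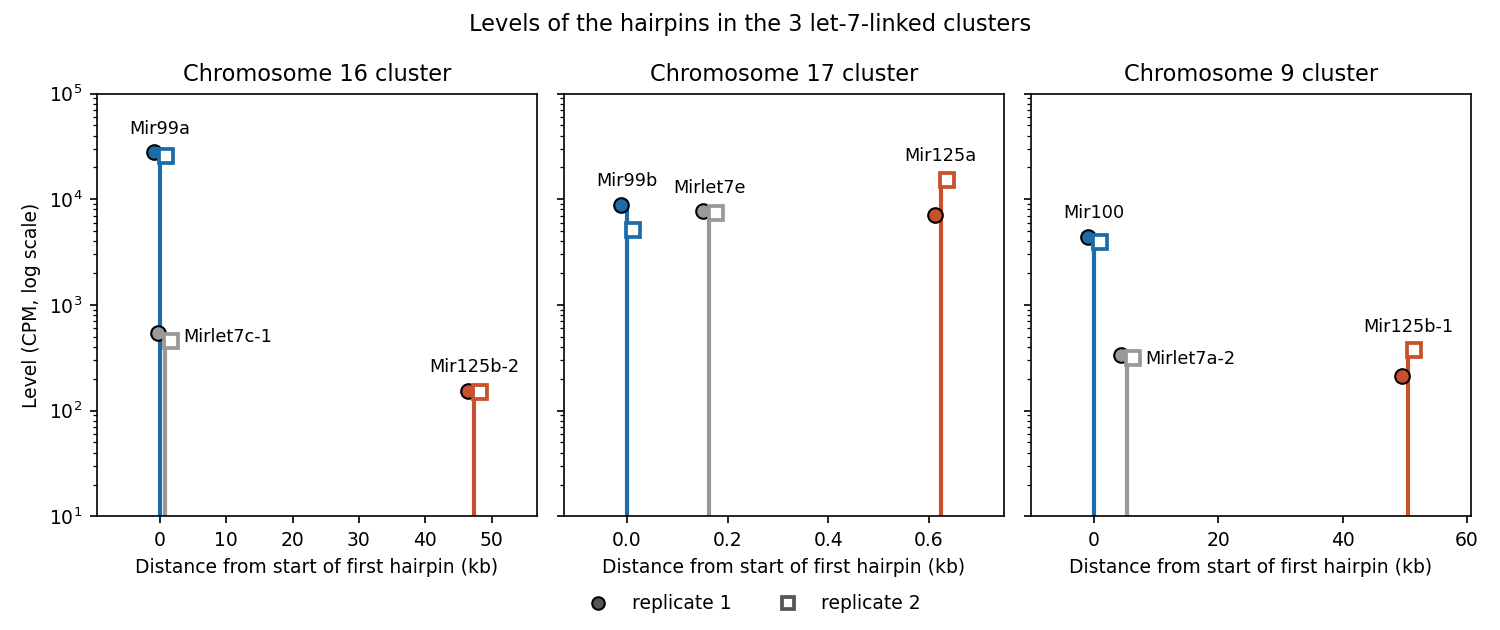
Level in CPM (log axis) of each hairpin of the 3 clusters against its distance in kb from the start of the first hairpin, with circles for replicate 1 and squares for replicate 2, blue for Mir99 or Mir100, grey for let-7 and red for Mir125 genes. On chromosome 17 the hairpins were all between 5168 and 15217 CPM. On chromosomes 16 and 9 the Mir99a and Mir100 genes stood far above the let-7 and Mir125 genes, whose levels leave out reads in shared stretches.

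Paralogs were compared within each library as log2 ratios of CPM + 0.5. With 2 libraries an exact sign-flip permutation test cannot give a two-sided p below 0.5, so these ratios carry no test. Mir99a exceeded Mir100 by 6.30 and 6.51 times in replicates 1 and 2, and the log2 ratio averaged 2.68 ± 0.03 (SD, n = 2). This ratio of genes on different chromosomes was the steadiest of the 6 paralog ratios. Mir99a exceeded Mir99b by 3.13 and 4.93 times, and Mir99b exceeded Mir100 by 2.01 and 1.32 times. Mir125a exceeded Mir125b-1 by 33.5 and 40.8 times and Mir125b-2 by 45.9 and 101 times. Mir125b-1 exceeded Mir125b-2 by 1.37 and 2.49 times. All ratios with a Mir125b gene leave out the shared stretch.

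The Mir99 or Mir100 gene was then set against the Mir125 gene of its own cluster. On chromosome 16, Mir99a exceeded Mir125b-2, 47272 bases away, by 180 and 170 times, a mean log2 ratio of 7.45 ± 0.06 (SD, n = 2). On chromosome 9, Mir100 exceeded Mir125b-1, 50421 bases away, by 20.8 and 10.5 times, a mean log2 ratio of 3.89 ± 0.70. On chromosome 17 the order turned between the libraries. Mir99b was 1.25 times Mir125a in replicate 1 and 0.340 times Mir125a in replicate 2, log2 ratios of 0.32 and -1.56. This is the cluster in which no mature arm was found in a microRNA hairpin at another place.

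The let-7 genes of the clusters, which carry the seed GAGGUAG of the let-7 family, complete the picture. Mirlet7e, between Mir99b and Mir125a, was at 7658 and 7458 CPM in replicates 1 and 2, a mean of 7558 CPM ± 141 (SD, n = 2). It lay above Mir125a in replicate 1 and below it in replicate 2, and below Mir99b in replicate 1 and above it in replicate 2. Counted without regard to strand it had 0 counts, since Gm25927 overlaps it on the opposite strand. Mirlet7c-1 of chromosome 16 was at 544 and 459 CPM and Mirlet7a-2 of chromosome 9 at 333 and 311 CPM, and both share 23 bases with another let-7 gene, so their levels have the limit of the Mir125b genes. Mir99a was thus 51.0 and 55.4 times Mirlet7c-1, and Mir100 was 13.2 and 12.6 times Mirlet7a-2, on assignable reads.

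Of the counts of the chromosome 17 cluster, Mir99b made up 37.6% in replicate 1 (exact interval as above, 37.2 to 37.9) and 18.6% in replicate 2 (18.3 to 18.8). Mir125a made up 30.0% in replicate 1 (29.7 to 30.4) and 54.7% in replicate 2 (54.4 to 55.0). The whole cluster held 2.36% and 2.78% of all microRNA counts, close to the chromosome 16 cluster at 2.85% and 2.61%. The chromosome 9 cluster held 0.496% and 0.460%. On chromosomes 16 and 9 these sums leave out reads inside the stretches that the let-7 and Mir125b genes share with other hairpins. The clusters are thus not measured alike.

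**Figure D2:**
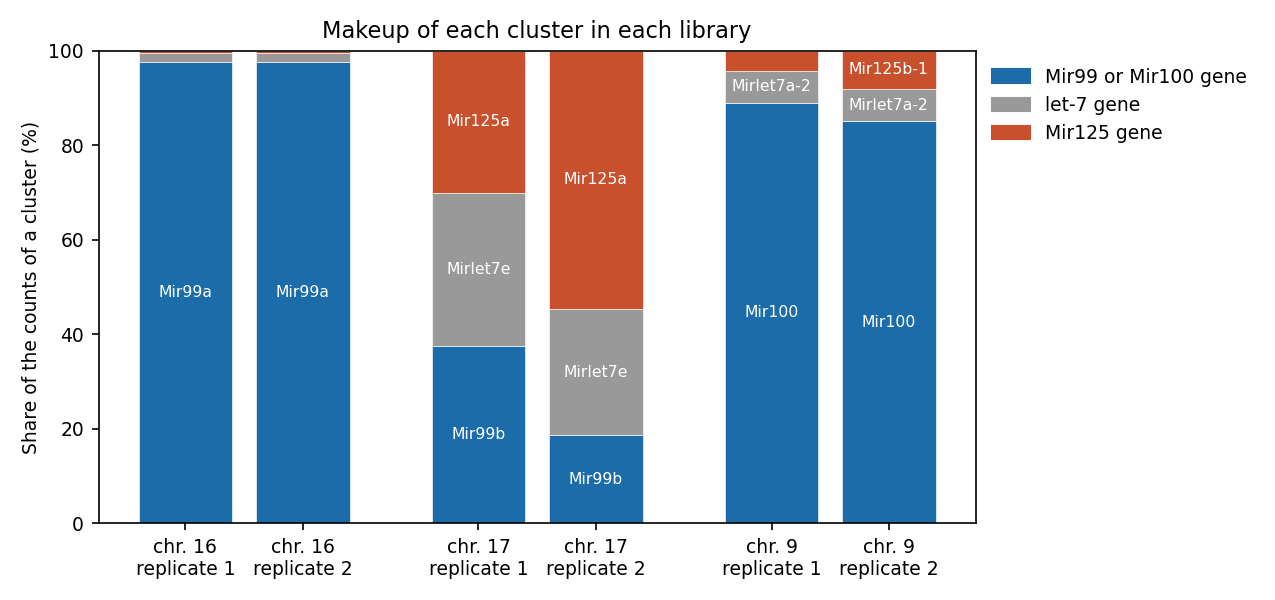
Share in percent of the counts of each cluster that came from its Mir99 or Mir100 gene (blue), its let-7 gene (grey) and its Mir125 gene (red), with a bar for each library, replicate 1 left of replicate 2. Mir125a took 30.0% of the chromosome 17 cluster in replicate 1 and 54.7% in replicate 2, while Mir99a held over 97% of the chromosome 16 cluster in both.

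Differences between the libraries were tested for all 320 genes past the low-count filter of edgeR, by a binomial test (exact, two-sided) that sets the split of a gene's counts against the TMM library sizes, and p-values were adjusted by Benjamini-Hochberg over all 320. The test compares the reads of these 2 libraries with counting noise, and not conditions. All 6 genes passed the filter, and 5 of 6 differed at an adjusted p under 0.05, against 64.4% of all tested genes. Of these, 3 were higher in replicate 1 (background 33.8%) and 2 in replicate 2 (background 30.6%). Most genes are called at these depths, so the count says little about the members and the sizes of the differences are given. The median absolute log2 ratio was 0.49 over the 6 genes and 0.42 over all 320.

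The Mir99 and Mir100 genes were higher in replicate 1. The log2 ratio of replicate 1 over replicate 2 was 0.79 for Mir99b (95% counting interval 0.77 to 0.82, exact binomial test, adjusted p = 1e-300, the value at which p-values were truncated). It was 0.14 for Mir99a (0.12 to 0.15, exact binomial test, adjusted p = 1.11e-98) and 0.18 for Mir100 (0.15 to 0.22, exact binomial test, adjusted p = 1.36e-28). At these depths small differences pass such a test. Of the 320 genes, 259 had a larger absolute ratio than Mir99a and 244 a larger one than Mir100, against 94 for Mir99b.

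Of the Mir125 genes, those of chromosomes 17 and 9 were higher in replicate 2. The log2 ratio was -1.09 for Mir125a (-1.11 to -1.07, exact binomial test, adjusted p = 1e-300, as truncated) and -0.81 for Mir125b-1 (-0.94 to -0.68, exact binomial test, adjusted p = 1.31e-36). Mir125b-2 gave 0.06 (-0.11 to 0.23, exact binomial test, adjusted p = 0.597), and its interval spans 0. Only 49 of the 320 genes had a larger absolute ratio than Mir125a. The ratio of the Mir99 or Mir100 gene minus that of its Mir125 partner was 1.88 on chromosome 17, 0.99 on chromosome 9 and 0.08 on chromosome 16, a quantity that does not depend on the scaling of the libraries.

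**Figure D3:**
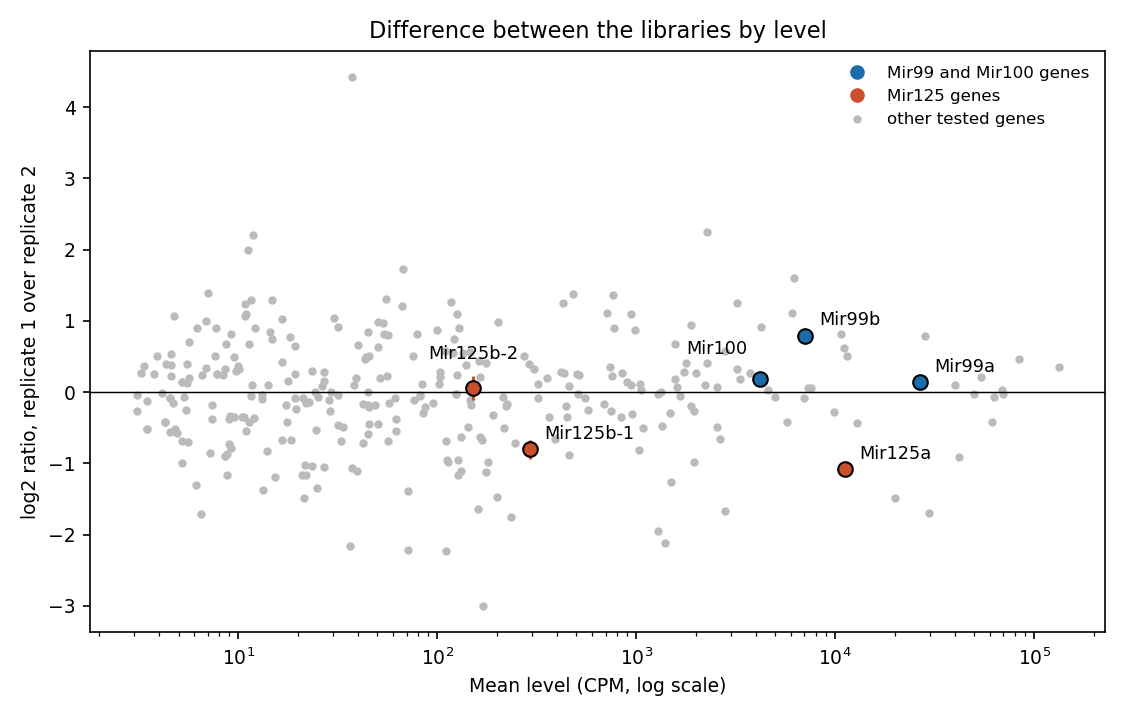
Log2 ratio of replicate 1 over replicate 2 against the mean level in CPM (log axis) for the 320 tested microRNA genes, with Mir99 and Mir100 genes in blue, Mir125 genes in red (bars are 95% counting intervals) and other genes in grey. Mir125a at -1.09 and Mir125b-1 at -0.81 lie below 0, Mir99b at 0.79 lies above it, and the other members lie within 0.2 of it.

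The shift within the chromosome 17 cluster was set beside other microRNA genes that lie within 10 kb on the same strand, a comparison chosen after the values were seen. Among 43 such pairs with both genes at a mean of 100 CPM or more, the log2 ratios of the partners differed by a median of 0.78. The pair of Mir99b and Mir125a, at 1.88, was among the 3 pairs that differed by at least this much. Partners that were called in opposite directions were common, in 20 of the 43 pairs. Some genes of these pairs, such as Mirlet7a-1 and Mirlet7c-2, share a stretch with another hairpin, and their counts leave out reads inside it. They are thus not measured like Mir99b and Mir125a. Pairs share genes and are not independent, so this is a description.

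**Figure D4:**
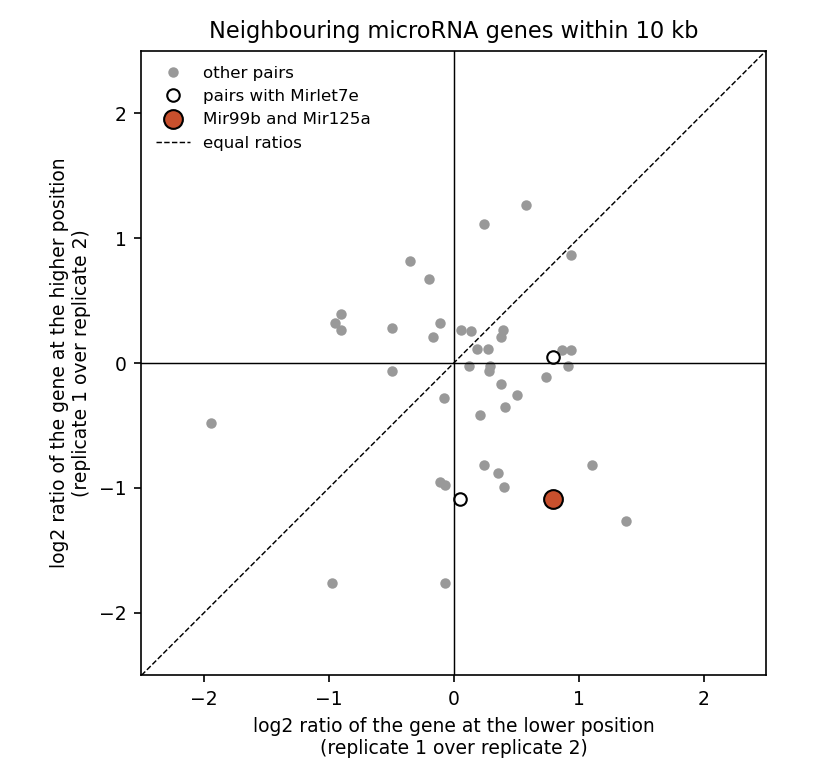
Log2 ratio of replicate 1 over replicate 2 for 43 pairs of neighbouring microRNA genes within 10 kb on a strand, with the gene at the lower position on the x axis and the gene at the higher position on the y axis. Mir99b and Mir125a (red, 0.79 and -1.09) lie far from the line of equal ratios, and the open circles are their pairs with Mirlet7e. Counts of some other genes leave out reads in stretches shared with another hairpin.

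Related genes outside the clusters had lower levels than Mir99a, Mir99b, Mir100 and Mir125a. Their levels were above those of Mir125b-1 and Mir125b-2, which leave out the shared stretch. Mir10a, on chromosome 11, had 1632 and 1572 CPM in replicates 1 and 2, and Mir10b, in introns of Hoxd3 and Hoxd4 on chromosome 2, had 1002 and 541 CPM. Both were below Mir100, the lowest of the 3 genes with the seed ACCCGUA. Mir351, on chromosome X, had 457 and 380 CPM. Mir351 has the seed of miR-125 in its 5′ arm, and Mir125a exceeded Mir351 by 15.5 and 40.0 times in counts of both arms together. Of these 3 genes and the 3 let-7 genes, 5 of 6 were called, against 64.4% of all tested genes, and all 5 were higher in replicate 1 on TMM sizes, against 33.8% of all tested genes. The ratios ranged from 0.05 for Mirlet7e to 0.90 for Mir10b, and those of Mirlet7e and Mir10a turned below 0 without the low-count filter. Mirlet7a-2 was at 0.11 (-0.01 to 0.23, exact binomial test, adjusted p = 0.0995).

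The gene closest to each member in log2(CPM + 0.5) over the 2 libraries was found by Euclidean distance. It was Mir26b for Mir99a (distance 0.46), Mir93 for Mir99b (0.44), Mir150 for Mir100 (0.23) and Mir30e for Mir125a (0.58). For the low members it was Mir338 for Mir125b-1 (0.34) and Mir382 for Mir125b-2 (0.15). With 2 libraries this likeness rests mostly on level. Mir30e, the closest to Mir125a, was at 8874 and 10883 CPM, a narrower range than that of Mir125a.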

How the data were processed

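Small RNA of whole heart was measured in 2 libraries, which form 1 group. The authors deposited raw read counts per microRNA gene, 1 table per library, on mm10 with GENCODE M21 per the deposited text that accompanies them. The aligner and its settings are not given in the sources used here. Of the count columns, reads on the strand of the gene were used. The 4 rows that name no gene (unmapped, several places, no gene, ambiguous) stayed out of library sizes and tests, and were 64.8% of the reads in replicate 1 and 63.6% in replicate 2. CPM were obtained by dividing the deposited counts by the total of the gene rows, which was 3650782 and 3810675.

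All 2202 identifiers matched GENCODE M21, which gave symbols, positions, hosts and hairpins. Mature sequences came from RefSeq (GRCm38.p6), and shared stretches were searched among the hairpins on both strands. Hairpin sequences are not reported here. Of the marker genes, Mir124 genes were matched under the symbol Mir124a.

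Library sizes came from TMM in edgeR 4.0.16 (R 4.3.3) after filterByExpr. Differences between the libraries were tested with an exact two-sided binomial test, Benjamini-Hochberg adjusted, threshold 0.05, checked on simulated counts. The simulated counts held counting noise and set changes only, so the check cannot speak to other spread between libraries. Alternatives used DESeq2 1.42.0 size factors, plain totals, other filters, the column without strand, other denominators, a pseudocount of 1, and each replicate left out. Levels and intervals used Python 3.11.15 with scipy 1.17.1. Intervals and the floor of 3 counts cover counting error only. The labels number the libraries as biological replicates with the same donor identifier, so the spread may hold technical differences.

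The genes named are the 6 members, their let-7 neighbours, Mir10a, Mir10b, Mir351, the gene closest to each member, and markers. Members, lists and tests were chosen with earlier results of these data known. Pairs of neighbouring genes were added after their values were seen.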

Additional observations from a re-analysis of the deposited data

How the results depend on the processing

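The count of 5 members called between the libraries was 5 under each of the 5 alternatives of scaling, filter and strand. The share of all tested genes called was 64.4%, against 64.1% with DESeq2 size factors, 63.8% with plain totals, 60.9% without strand, 29.5% of 722 genes without the low-count filter and 73.9% of 238 genes under the filter of 10 CPM. Their directions did not change for Mir99a, Mir99b, Mir100, Mir125a and Mir125b-1. Without the low-count filter, through changed TMM library sizes, the log2 ratio of replicate 1 over replicate 2 was -0.020 for Mir125b-2, -0.026 for Mirlet7e (exact binomial test, adjusted p = 0.106) and -0.01 for Mir10a (exact binomial test, adjusted p = 0.917). The call of Mir10a was also lost with plain totals (0.054), under the filter of 10 CPM (0.038) and without strand (0.035), that of Mirlet7e under the filter of 10 CPM (0.022), and Mirlet7a-2 was called with DESeq2 size factors (0.13). The summed share of the 6 members was 4.94%, against 6.41% without strand, 4.36% of all uniquely mapped reads and 5.70% with the most abundant gene left out of the denominator. It ranged from 4.85% to 5.03% when either replicate was left out. These denominators scale all 6 members nearly alike, by 1.29 to 1.30, 0.879 to 0.886 and 1.15 to 1.16 times. The log2 ratio of Mir99b to Mir125a, -0.62 as a mean, was 0.32 without replicate 2 and -1.56 without replicate 1, and the cause was not tested. The other 8 ratios among the 6 members within a library kept their direction without either replicate, without strand and at a pseudocount of 1. Ratios with a let-7 gene were not run through these alternatives. Of those, Mirlet7a-2 to Mir125b-1 turned between the libraries, with log2 ratios of 0.65 and -0.26 in replicates 1 and 2. The ratios of Mirlet7e with Mir99b and Mir125a turned as well. No paired analysis was possible because the libraries form 1 group. More depth would not raise the Mir125b counts by reads inside the shared stretch, which enter no gene.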

Other observations

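The other 2 neighbouring pairs that differed at least as much as Mir99b and Mir125a were Mir16-1 with Mir15a on chromosome 14, 54 bases apart, and Mir93 with Mir106b on chromosome 5, 126 bases apart. Their log2 ratios of replicate 1 over replicate 2 were 1.38 and -1.26 for Mir16-1 and Mir15a, and 1.11 and -0.81 for Mir93 and Mir106b. Mir16-1 has a further copy of its mature sequence at Mir16-2. Of 264 pairs with both genes past the low-count filter, 11 differed by 1.88 or more, and 39 were called in opposite directions. Of the 3′ arms, miR-99a-3p and miR-99b-3p share the seed AAGCUCG, while those of Mir100, Mir125a, Mir125b-1 and Mir125b-2 have seeds of no other RefSeq mature sequence.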
